A study of Mus musculus with 9 samples.

Results

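The cytochrome P450 genes are described here by the presence of BAP1 at their promoters in Ba/F3 cells. The members were the protein-coding genes of the GENCODE M1 annotation whose symbol begins with Cyp followed by a number and a letter. There were 97 such genes among 22367 protein-coding genes, and 2 of them carry symbols that end in -ps, a suffix for pseudogenes. Ba/F3 is a mouse line of B cell precursors that grows in the presence of IL-3. BAP1 was immunoprecipitated from wild type (WT) Ba/F3 cells with an anti-BAP1 antibody, and from Ba/F3 cells with stable expression of triple-FLAG-tagged murine BAP1, kept under puromycin, with an anti-FLAG antibody. The promoter that drives the tagged BAP1 is not given in the sources used here. Both of these samples entered 1 deposited list of 13164 peaks, each 200 bp wide, so no value below has a replicate error. The other samples of the series, 4 of input DNA and 3 of H2AK119ub, were not analysed here. The list holds no heights and no expression, so neither the strength of a peak nor the cell type could be checked from it, and the depth of the samples is unknown.

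P450 enzymes are heme proteins that insert an oxygen atom into small molecules. Families Cyp1 to Cyp4 oxidize drugs, other foreign compounds, fatty acids and eicosanoids, chiefly in liver, intestine, kidney and lung, and many of their genes stand in tandem arrays. A further set of P450s makes or inactivates cholesterol, steroid hormones, bile acids and vitamins A and D. P450s of the endoplasmic reticulum take their electrons from P450 oxidoreductase, and those of mitochondria from adrenodoxin and its reductase. BAP1 removes ubiquitin from histone H2A and is recruited to promoters with HCF1, ASXL proteins and FOXK factors.

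A gene was counted as bound where at least 1 annotated transcription start site (TSS) had the middle of a BAP1 peak no more than 1 kb away, and such a peak is called gene-proximal. Of the 97 P450 genes, 4 had such a peak, a share of 4.12% (95% Wilson interval 1.62 to 10.1), beside 39.6% of all protein-coding genes. These were *Cyp4f13*, *Cyp4f16*, *Cyp4f17* and *Cyp20a1*. *Cyp4f* enzymes hydroxylate fatty acids and eicosanoids such as leukotriene B4, and *Cyp20a1* encodes a P450 without an established substrate. Of 39 subfamilies, 2 therefore held a gene with a peak. The Wilson intervals cover counting error only and treat genes as separate draws, which paralogs in arrays are not.

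The contrast of the xenobiotic families with the sterol and vitamin enzymes gave few peaks on either side. Among Cyp2 to Cyp4, 3 of 76 genes had a gene-proximal peak (3.95%, 1.35 to 11.0), and all 3 belonged to *Cyp4f*. The remaining 68 genes of these families had 0, with an interval up to 5.35%. By family, the count was 0 of 50 for Cyp2, 0 of 9 for Cyp3 and 3 of 17 for Cyp4. Among the sterol and vitamin enzymes it was 0 of 17, and the interval reached 18.4%. The 2 intervals overlap, and whether these groups differ was not tested. For Cyp1, the family induced through the aryl hydrocarbon receptor, it was 0 of 3.

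**Figure D1:**
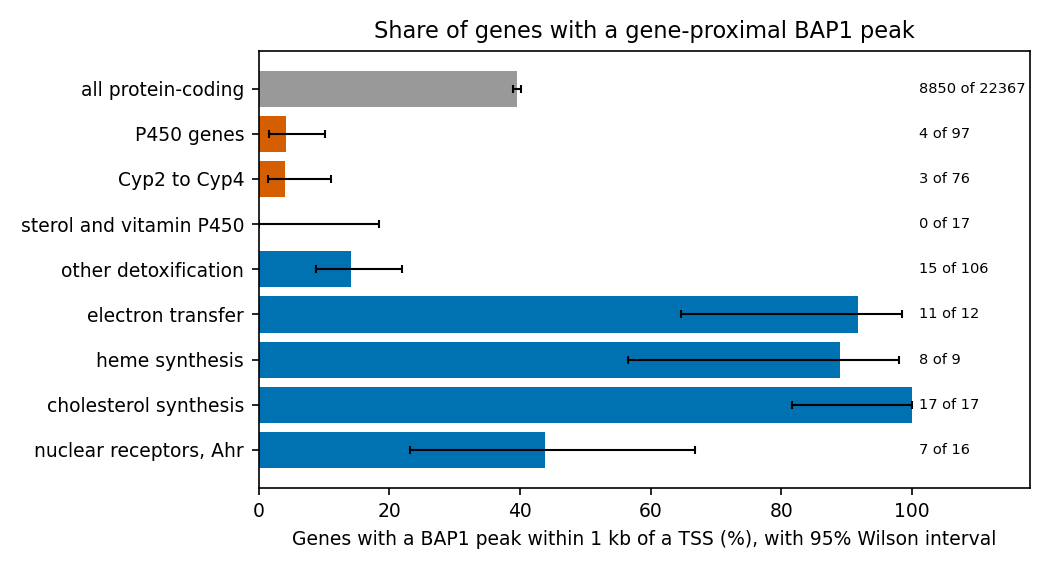
Share of genes with a BAP1 peak within 1 kb of a TSS, in percent, for all protein-coding genes (grey), P450 groups (orange) and other gene lists (blue), with 95% Wilson intervals as lines and the counts at the right. The P450 genes stand at 4.12% beside 39.6% of all protein-coding genes, and the electron transfer, heme synthesis and cholesterol synthesis genes lie between 88.9 and 100%.

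*Cyp51* lies outside the members because its symbol has no letter after the number. It encodes lanosterol 14-alpha-demethylase, a P450 of cholesterol synthesis found in most cells. It lies on chromosome 5 from 4081145 to 4104746 (mm9) and had 2 peaks that overlap each other. Their middles lay 28 bp downstream and 144 bp upstream of the nearest TSS. Both peaks lay inside the span of the gene, so upstream here refers to that TSS and not to the start of the gene. They also lay wholly inside annotated exons, with 200 of 200 bases each. With *Cyp51* the sterol and vitamin enzymes would count 1 of 18 (5.56%, 0.988 to 25.8). Adding the vitamin D 25-hydroxylase *Cyp2r1*, a Cyp2 gene by name, gave 1 of 19.

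At the Cyp4f genes the peaks sat on the TSS. At *Cyp4f13*, which lies on the minus strand of chromosome 17 from 33061633 to 33084347, the middle of the peak was 5 bp upstream of the nearest TSS, and the peak covered 5 annotated TSSs. At *Cyp4f16*, on the plus strand from 32673503 to 32688743, it was 56 bp upstream and covered 5 TSSs. At *Cyp4f17*, on the plus strand from 32643407 to 32665839, it was 70 bp upstream and covered its only TSS. *Cyp20a1* spans 60400167 to 60444904 of chromosome 1 in the plus direction. There the middle of the peak was 210 bp downstream, and the peak as listed covered no TSS. Of its 200 bases, 25 lay in exons and 175 in the intron that follows. None of these 4 peaks lay within 1 kb of a TSS of another gene. All peaks of the list have the same width of 200 bp. The TSSs covered, the bases in exons and the CpG counts below depend on that width. They do not show whether BAP1 was absent from the TSS of *Cyp20a1*.

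The sequences of 3 of these peaks are shown because they are the places at P450 genes where the list has a BAP1 peak. As listed, these stretches lie before the gene at *Cyp4f13* and *Cyp4f16* and in the first intron at *Cyp20a1*. Each is limited to a stretch outside annotated exons, which leaves out 6 of the 110 such bases at *Cyp4f13*. They are read 5′ to 3′ on the strand of the gene, in mm9. Capitals mark GGGCGGG, the box bound by SP and KLF factors, and CCAAT, the box bound by NF-Y, on either strand (CCCGCCC and ATTGG when inverted).
Cyp4f13, chr17:33084348-33084451, minus strand: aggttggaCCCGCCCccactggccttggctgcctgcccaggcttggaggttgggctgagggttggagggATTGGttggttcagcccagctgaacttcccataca
Cyp4f16, chr17:32673347-32673502, plus strand: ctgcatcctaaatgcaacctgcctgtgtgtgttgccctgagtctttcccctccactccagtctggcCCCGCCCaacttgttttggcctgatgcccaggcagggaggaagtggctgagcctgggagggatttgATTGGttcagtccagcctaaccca
Cyp20a1, chr1:60400302-60400476, plus strand: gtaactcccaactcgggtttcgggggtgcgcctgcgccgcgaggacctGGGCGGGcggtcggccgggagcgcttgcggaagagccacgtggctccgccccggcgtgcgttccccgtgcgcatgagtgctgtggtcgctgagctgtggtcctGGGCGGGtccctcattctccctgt

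In these stretches the SP/KLF box occurred 1 time at *Cyp4f13*, 1 time at *Cyp4f16* and 2 times at *Cyp20a1*. The CCAAT box occurred at *Cyp4f13* and *Cyp4f16* and not at *Cyp20a1*. The window around the TSS of *Cyp20a1*, from 250 bases before to 50 after it, held 0 SP/KLF boxes. The whole peak held 6 CpG dinucleotides at *Cyp4f13*, 1 at *Cyp4f16* and 8 at *Cyp4f17*, against 23 at *Cyp20a1*. Of all 13164 peaks, 43.8% held the SP/KLF box and 28.5% the CCAAT box, and 13.0% held both. These shares are over whole peaks of 200 bp, which are longer than the stretches shown above.

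For comparison, the 150 bases before the first TSS are given for the paralogs *Cyp4f15* and *Cyp4f18*, which had no gene-proximal peak and were chosen after their values were seen. *Cyp4f18* is the mouse gene of this group that neutrophils express.
Cyp4f15, chr17:32822422-32822571, plus strand: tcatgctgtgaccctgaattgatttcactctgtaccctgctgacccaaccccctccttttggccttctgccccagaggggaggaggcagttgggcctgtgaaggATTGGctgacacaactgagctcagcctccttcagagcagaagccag
Cyp4f18, chr8:74533526-74533675, minus strand: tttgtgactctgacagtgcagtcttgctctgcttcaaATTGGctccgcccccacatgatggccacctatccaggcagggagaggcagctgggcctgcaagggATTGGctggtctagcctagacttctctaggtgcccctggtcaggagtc
Both carried an inverted CCAAT box here and neither held GGGCGGG in this window. In windows from 250 bases before to 50 after the TSS of the longest transcript, the CCAAT box was present at 8 of 8 *Cyp4f* genes. The SP/KLF box was present at 3 of the 3 with a peak and at 1 of the 5 without, *Cyp4f15*. Over the 97 P450 promoters, the SP/KLF box was present in 16 (16.5%), of which 3 had a gene-proximal peak. The CCAAT box was present in 52 (53.6%), of which 3 had one. Both boxes occurred in 11 (11.3%), beside 12.2% of all protein-coding promoters. These 11 included genes without a peak, such as *Cyp24a1*, *Cyp27a1*, *Cyp46a1* and *Cyp26b1*. The same window held the CCAAT box in 37.6% and the SP/KLF box in 32.9% of all protein-coding promoters. Among genes with a CpG ratio under 0.48 (observed over expected CpG around the TSS), to which all 8 *Cyp4f* genes belong, the SP/KLF box was present in 29.5% of promoters with a gene-proximal peak and in 7.66% of those without, and the CCAAT box in 44.4% and 38.0%. A match of letters is a description and not a binding site.

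The *Cyp4f* genes with a peak were neighbors of genes without one. *Cyp4f17* and *Cyp4f16* stand next to each other, whereas *Cyp4f13* lies at the opposite end of the cluster on chromosome 17. For *Cyp4f39* and *Cyp4f14* the nearest peaks were those of *Cyp4f17* and *Cyp4f13*, at 37.9 and 30.3 kb. For *Cyp4f18*, on chromosome 8, the nearest peak lay 41.8 kb away at the TSS of *Zfp961*. From the first to the last base of the cluster there were 6 peaks in 0.479 Mb, or 12.5 per Mb, beside 7.18 per Mb on the whole chromosome, and the peak of *Cyp4f13* had its middle just outside this span. Of these 6, 2 were at the TSS of *Zfp871* and overlapped each other, so the density counts this place 2 times. A further 1 lay inside *Cyp4f17*, 17.7 kb from its TSS, and 1 lay between *Zfp799* and *Zfp870*. The remaining 2 were those of *Cyp4f17* and *Cyp4f16* described above.

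**Figure D2:**
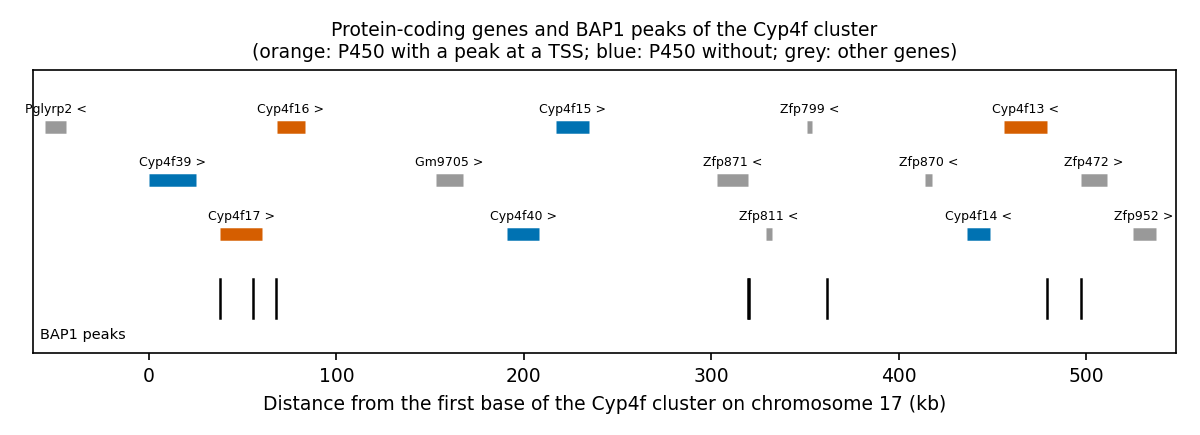
Protein-coding genes (bars, with > and < for the strand) and BAP1 peaks (black ticks) along the Cyp4f cluster, by distance in kb from its first base. *Cyp4f17*, *Cyp4f16* and *Cyp4f13* (orange) have a peak at the TSS, the other P450 genes (blue) do not, and other genes are grey.

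Part of the *Cyp4f16* promoter is duplicated. Of the 251 overlapping stretches of 50 bases in its promoter window, 62.5% occurred a single time in the genome. The other 94 occurred also at a copy on the same chromosome, from 32757970 to 32758212, within 1 kb of *Gm9705*. The nearest peak to this copy was 84644 bp away. Over all members, 90 of 97 had at least 50% of such stretches at a single place, and 4 of these 90 (4.44%) had a gene-proximal peak. The 7 members below this level included *Cyp3a41a* and *Cyp3a41b*, each at 24.3%, and *Cyp21a1*, at 43.0%. How reads that match several places were handled is not given in the sources used here, and the part of repeats in the absence of peaks at these 7 genes was not tested.

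The other P450 genes had no peak near their TSSs. The order of distances had a wide gap, since after *Cyp20a1* at 0.21 kb the next gene was *Cyp27b1* at 6.31 kb, and 0 genes had their nearest peak between 1 and 5 kb. Any window from 0.21 to 5 kb thus gives the same 4 genes. The median distance from a TSS to the nearest peak was 121.1 kb for the P450 genes, with quartiles of 37.9 and 237.2 kb, and 16.6 kb for all protein-coding genes. Distances of 1 to 50 kb were found for 25 P450 genes (25.8%), beside 23.2% of all protein-coding genes. Those of 68 genes were above 50 kb (70.1%, beside 37.2%), and those of 10 were above 500 kb (10.3%, beside 7.85%).

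**Figure D3:**
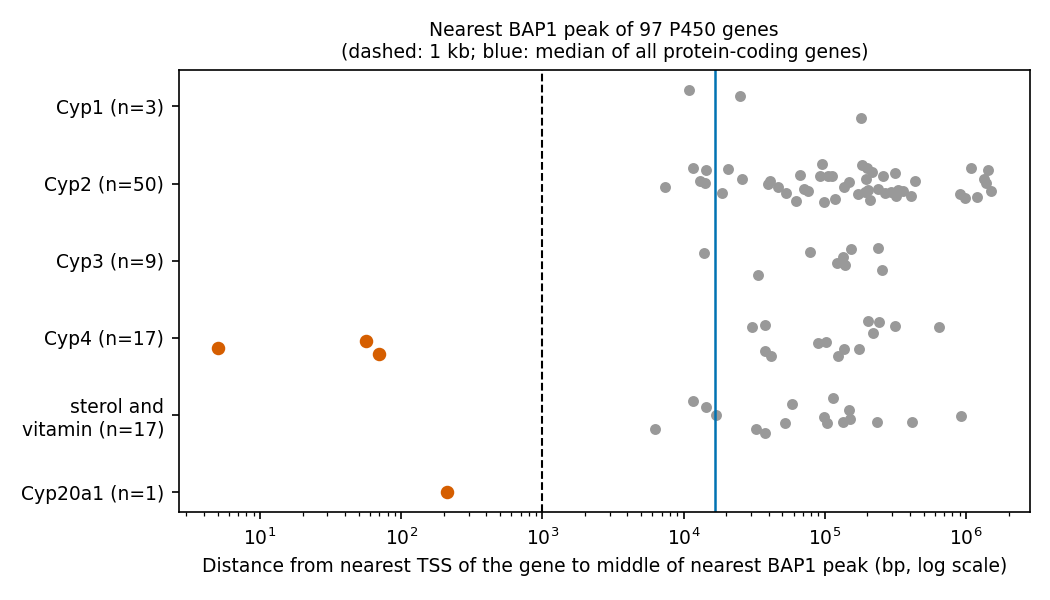
Distance in bp, on a log axis, from the nearest TSS of each P450 gene to the middle of the nearest BAP1 peak, by family, with 1 point per gene. The 4 genes with a gene-proximal peak (orange) lie between 5 and 210 bp, and the others (grey) lie at 6312 bp or more; the dashed line marks 1 kb and the blue line the median of all protein-coding genes, 16.6 kb.

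*Cyp27b1*, which makes active vitamin D, had the shortest distance of the sterol and vitamin enzymes, with a peak 6.31 kb upstream, where it lay at the TSSs of *Mettl1* and *Fam119b*. *Cyp24a1*, which inactivates vitamin D, had it 14.3 kb upstream at the TSS of *Pfdn4*. These peaks are thus gene-proximal for other genes and cannot be assigned to the P450 genes by distance. The retinoic acid hydroxylases were further away, with 135.3 kb for *Cyp26c1*, 147.5 kb for *Cyp26a1* and 150.5 kb for *Cyp26b1*. *Cyp26a1* and *Cyp26c1* are neighbors and share the same nearest peak, at *Exoc6*.

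The steroid hormone genes ranged from 17037 bp for *Cyp17a1*, the 17-alpha-hydroxylase, to 233.8 kb for *Cyp19a1*, the aromatase. *Cyp21a1*, the 21-hydroxylase, had its nearest peak at 32.4 kb, at the TSSs of *Dom3z* and *Stk19*. *Cyp11a1*, which cleaves the cholesterol side chain, had it at 104.0 kb, at *Ubl7*. The pair *Cyp11b2* and *Cyp11b1*, for aldosterone and corticosterone synthesis, shared a peak at *Ly6e*, at 99.3 and 114.0 kb. Among the genes of bile acid and oxysterol synthesis, *Cyp7a1*, the rate-limiting enzyme of the classic pathway, had a peak 11.7 kb upstream that lay at no TSS, and *Cyp8b1* one at 37.5 kb. *Cyp27a1* stood at 51.8 kb, *Cyp46a1*, the cholesterol 24-hydroxylase of neurons, at 58.8 kb and *Cyp39a1* at 411.3 kb. *Cyp7b1* was the most distant of the group, with 919.6 kb.

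Of the 93 P450 genes without a gene-proximal peak, 46 had as their nearest peak one at the TSS of another gene, and 47 one at no TSS. The 93 genes shared 45 nearest peaks, and 1 peak was the nearest for 8 genes, so these distances are not independent of each other. Among the 25 genes at 1 to 50 kb, the nearest peak was at the TSS of another gene for 16. *Cyp1a1* and *Cyp1a2*, which stand head to head, had the same nearest peak at *Edc3*, at 11.0 and 24.9 kb. Besides that of *Cyp20a1*, peaks inside the body of a P450 gene were found in *Cyp4f17*, in *Cyp2c66*, 14.2 kb from its TSS, and in *Cyp2c38*, 14.3 kb from its TSS.

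Most P450 genes are arranged in clusters, taken here as 3 or more members on a chromosome with gaps of at most 500 kb. There were 8 clusters with 70 of the 97 genes, and they held 17 peaks in 5.79 Mb, or 2.94 per Mb, beside 4.96 per Mb over the chromosomes of the list. This order depended on the limits of the clusters, since the density was 5.47 per Mb, above that of the chromosomes, with 50 kb added on either side, and 1.45 per Mb with gaps of at most 200 kb. In 3 clusters there was no peak, namely *Cyp2d* (9 genes), *Cyp2j* (8 genes) and *Cyp4a* with *Cyp4b1* and *Cyp4x1* (8 genes). The *Cyp2j* cluster, of arachidonic acid epoxygenases, was also far from any peak. Its flanking peaks lay 866.1 kb and 1719.1 kb from its ends, and its 8 genes were between 900.6 and 1502.7 kb from the nearest peak. The *Cyp2c* cluster held 2 peaks (1.69 per Mb), the *Cyp2a* to *Cyp2t* cluster of chromosome 7 held 2 (1.47 per Mb) and the *Cyp3a* cluster 1 (1.22 per Mb). The densities of their chromosomes were 8.17, 6.63 and 5.61 per Mb. The interval from *Cyp1a2* to *Cyp11a1* on chromosome 9 had the highest density, 6 peaks in 0.35 Mb, although none was at a P450 gene. It also holds 6 other protein-coding genes, of which *Arid3b*, *Clk3*, *Edc3* and *Ubl7* had a gene-proximal peak.

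**Figure D4:**
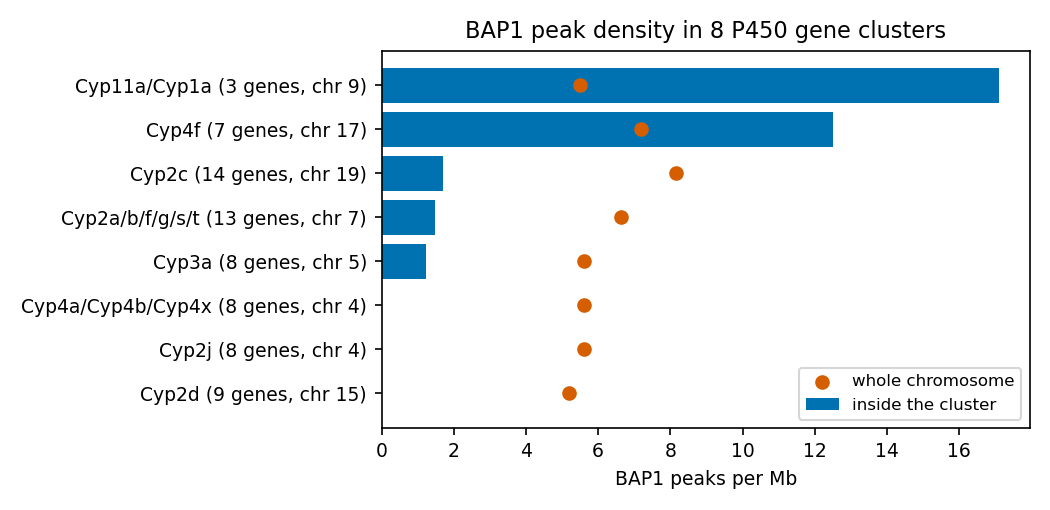
BAP1 peaks per Mb inside 8 clusters of P450 genes (blue bars) and on the whole chromosome of each (orange points). The bars of the *Cyp11a*/*Cyp1a* and *Cyp4f* intervals, 17.1 and 12.5 per Mb, pass their chromosome's point, and those of the other 6 clusters, from 0 to 1.69 per Mb, lie below it.

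P450 promoters hold few CpG dinucleotides. The CpG ratio, observed over expected in the 500 bp on either side of the TSS and highest over the TSSs of a gene, had a median of 0.16 for the P450 genes and 0.602 for all protein-coding genes. The median was 0.147 for Cyp2 to Cyp4, 0.063 for Cyp3 alone and 0.388 for the sterol and vitamin enzymes. Below a ratio of 0.48, where 84 of the 97 P450 genes fell, 3 had a peak (3.57%, 1.22 to 9.98), beside 4.39% of all protein-coding genes in this range. The 3 were the *Cyp4f* genes, with ratios of 0.254 (*Cyp4f13*), 0.218 (*Cyp4f16*) and 0.355 (*Cyp4f17*). At the TSS that carries its peak, *Cyp4f16* had a ratio of only 0.097. By the highest ratio of each gene, 0.734% of the 8850 protein-coding genes with a gene-proximal peak were as low as *Cyp4f13*. For *Cyp4f16* (0.218) and *Cyp4f17* the shares were 0.452% and 1.91%. Of all protein-coding genes, 24.2%, 20.5% and 32.8% had a ratio as low as *Cyp4f13*, *Cyp4f16* and *Cyp4f17*.

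Fewer P450 promoters had a ratio of 0.48 or above. Of 13 P450 genes in this range, 1 had a peak (7.69%, 1.37 to 33.3), *Cyp20a1* with 0.745, beside 64.1% of all protein-coding genes in the same range. The 12 genes without a peak, named here after their values were seen, included 7 sterol and vitamin enzymes, which are *Cyp46a1* (ratio 0.854), *Cyp26b1* (0.847), *Cyp26a1* (0.727), *Cyp24a1* (0.679), *Cyp39a1* (0.678), *Cyp27a1* (0.524) and *Cyp7b1* (0.488). The other 5 were *Cyp2r1* (0.758), *Cyp2u1* (0.704), *Cyp4v3* (0.692), *Cyp2s1* (0.53) and *Cyp1b1* (0.502). In the highest class, above 0.75, the counts were 0 of 3 for the P450 genes, beside 73.8% of all protein-coding genes, and in the class between, 1 of 10 beside 52.4%.

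**Figure D5:**
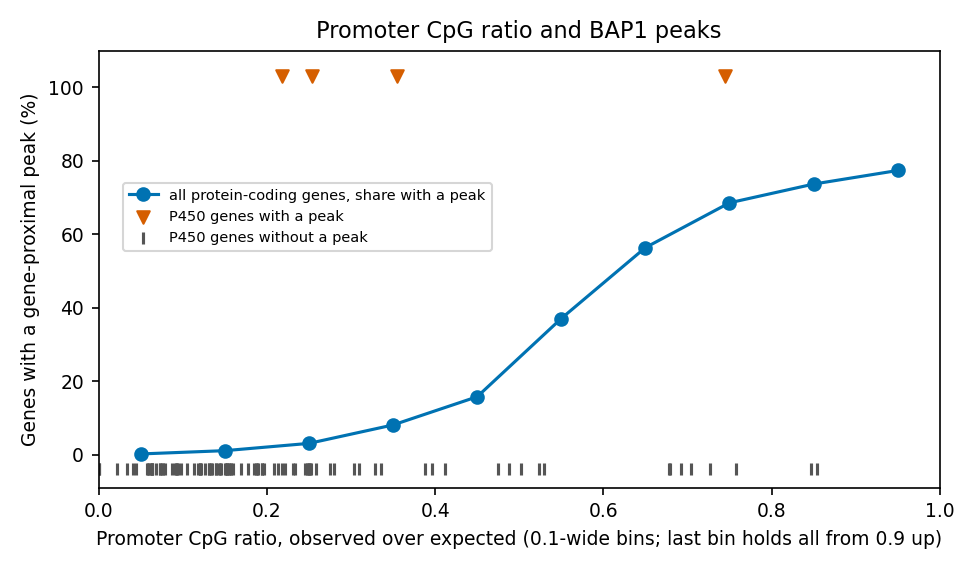
Percent of all protein-coding genes with a gene-proximal BAP1 peak in bins of the promoter CpG ratio (blue line), with the ratios of the P450 genes with a peak (orange triangles) and without one (ticks at the bottom). The line rises from 0.226% to 77.4%, and of the 4 triangles 3 lie at ratios under 0.48.

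Genes for proteins that P450s depend on mostly had a peak. Of 12 genes for electron transfer, 11 had a gene-proximal peak (91.7%, 64.6 to 98.5), beside the 39.6% of all protein-coding genes. They included *Por*, the P450 oxidoreductase, with the middle of its nearest peak 0.048 kb from a TSS, and *Fdx1* and *Fdxr*, adrenodoxin and its reductase, at 0.043 and 0.253 kb. *Cyb5r2*, a cytochrome b5 reductase, was the exception, at 464.7 kb. Of 9 genes of heme synthesis, 8 had a peak (88.9%, 56.5 to 98.0), among them *Alas1*, the housekeeping form of the rate-limiting enzyme, at 0.022 kb. The exception was *Alas2*, the erythroid form, at 69.1 kb.

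Of 17 further genes of cholesterol synthesis, the pathway of *Cyp51*, 17 had a peak (interval 81.6 to 100%), beside 39.6% of all protein-coding genes. The most distant of these peaks, at *Idi1*, the isopentenyl diphosphate isomerase, had its middle 0.263 kb from a TSS. Of 16 genes for nuclear receptors and the aryl hydrocarbon receptor system, which control P450 genes, 7 had one (43.8%, 23.1 to 66.8). This share is near the 39.6% of all protein-coding genes. The 7 were *Nr1h3* and *Nr1h2*, the oxysterol receptors, *Vdr*, the vitamin D receptor, *Rara*, *Rxra*, *Rxrb* and *Arnt*, the partner of AHR. *Nr1i2* and *Nr1i3*, the xenobiotic receptors PXR and CAR, were without a peak and lay 52.1 and 8.1 kb away. The same was true of *Ahr* itself, at 479.3 kb, and of *Ppara*, *Hnf4a*, *Nr1h4*, *Nr0b2*, *Nr5a1* and *Ahrr*. Of the P450s with other symbols, *Tbxas1*, the thromboxane synthase of platelets and macrophages, had a peak 0.878 kb from a TSS, and *Ptgis*, the prostacyclin synthase, had its nearest at 29.4 kb.

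The promoters of these partner genes were rich in CpG. Of the 56 genes in the lists together, 49 had a ratio of 0.48 or above, and 44 of these 49 had a peak (89.8%, 78.2 to 95.6), beside 64.1% of all protein-coding genes and 1 of 13 P450 genes in the same range. Of the 7 with a lower ratio, 0 had one. The lists were chosen by function and are not a sample of any class, so the counts describe these genes.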

How the data were processed

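Per the methods and the submitters' processing notes, the authors aligned the reads with Bowtie 1.0.0 (genome mm9), and peak calls over input DNA came from MACS 1.4.2. They deposited 1 list of peak starts and ends in bp for the anti-BAP1 and anti-FLAG samples together. The peak threshold and the rule that joined both samples are not given in the sources used here, and a stricter threshold could lower the shares. The columns of starts and ends belong to both samples pooled and to neither alone, and 0 columns were left unassigned.

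Peaks were placed on GENCODE M1 (NCBIM37, the same build as mm9), without mitochondrial genes. The sequences come from that genome, and that of the *Cyp4f17* peak is not reported here. Distances run from TSS to peak middle. CpG classes were split at 0.48 and 0.75. Of the list symbols, 3 had no protein-coding entry, of which *Cyb5a* and *Msmo1* were listed under their older names *Cyb5* and *Sc4mol*, and the third, *Hmgcs1*, was not analysed here. No set test was run, since the members and lists were chosen with earlier results of these data known. Named genes were all members with a gene-proximal peak, all sterol and vitamin members, any at 1 to 5 kb, and the smaller side of each partner list, with further examples added after their values were seen. Motifs were searched on both strands. Tested on simulated data, 5000 of 5000 distances equaled a direct search, and 1000 of 1000 planted motifs were found. Software was Python 3.11.15, numpy 2.4.6, pandas 2.3.3, scipy 1.17.1 and matplotlib 3.10.9.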

Additional observations from a re-analysis of the deposited data

How the results depend on the processing

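The 4 P450 genes with a gene-proximal peak were the same genes with windows of 500 bp, 2 kb and 5 kb, with the edge of the peak, with 1 TSS per gene, with TSSs of protein-coding transcripts, after merging of peaks within 500 bp, and without peaks near other genes. The last choice lowered the shares set beside them. All protein-coding genes then stood at 27.4% against 39.6%, and the partner genes at 60.7% against 78.6%. The other detoxification families described below stood at 9.43% against 14.2%. The range set how many members had a more distant nearest peak, which was 12 within 20 kb and 38 within 100 kb, against 25 within 50 kb. The count of peaks inside clusters was 7 with gaps of at most 200 kb (1.45 per Mb) and 36 with 50 kb added on either side (5.47 per Mb), against 17 (2.94 per Mb), so that the density passed the 4.96 per Mb of the chromosomes in the widened spans. The sterol and vitamin count of 0 became 1 with *Cyp51*, and also 1 with *Cyp51* and *Cyp2r1*, both choices made after seeing the data. Of 57 alternative values, 51 stayed within 1.5 times the value given. No replicate could be left out, because the list pools both samples. No paired analysis was possible because no result comes from a test between samples.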

Other observations

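Other enzyme families of detoxification were counted in the same way, and 15 of 106 genes had a gene-proximal peak (14.2%, 95% Wilson interval 8.77 to 22.0), beside 39.6% of all protein-coding genes. Aldehyde dehydrogenases had 8 of 20 and so made up 8 of these 15 genes. They were the mitochondrial *Aldh2*, with the middle of its nearest peak 0.021 kb from a TSS, *Aldh3a2*, *Aldh4a1*, *Aldh6a1*, *Aldh7a1*, *Aldh9a1*, *Aldh16a1* and *Aldh18a1*. Families were taken whole by symbol, whatever the role of each gene, so the shares are not those of genes known to act in detoxification. Glutathione S-transferases had 6 of 21, with *Gsto1*, *Gsto2*, *Gstm1*, *Gstm4*, *Gstz1* and *Gstt2*. Flavin monooxygenases had 1 of 6, *Fmo5*. The UDP-glucuronosyltransferases (0 of 21), the sulfotransferases (0 of 17) and the carboxylesterases (0 of 21) had none. The carboxylesterases counted include separate entries under the same symbol *Ces5a*, and *Ces2d-ps*, which carries the suffix for pseudogenes. Below a CpG ratio of 0.48 the count over these families was 3 of 84 (3.57%), beside 4.39% of all protein-coding genes in that range, and above it 12 of 22 (54.5%, 34.7 to 73.1), beside 64.1%. All 8 aldehyde dehydrogenases with a peak were among these 12. The *Ugt* symbols include genes that share exons at a single locus, so their promoters are not all separate.

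The letters TATAAA occurred in 36.1% of the P450 promoters, from 250 bases before to 50 after the TSS, beside 13.3% of all protein-coding promoters. They were present in the windows of 0 of the 4 P450 genes with a gene-proximal peak, too few genes to compare with these shares. Of all peaks, 4.73% held them, but peaks are 200 bp wide, shorter than these windows, and not all lie at a TSS. The ETS letters CCGGAAG occurred in 2 of 97 P450 promoters (2.06%), beside 11.0% of all protein-coding promoters, and 1 of these 2 was that of *Cyp4f13*. Most P450 genes (86.6%) have a CpG ratio under 0.48, and among all protein-coding genes in that range without a gene-proximal peak the ETS letters occurred in 2.19%, and TATAAA in 23.5%. The core letters of the xenobiotic response element, GCGTG, occurred in 19.6% of the P450 promoters and in 37.6% of all, but in 14.4% of promoters in the low CpG range without a gene-proximal peak and 28.3% of those with one. For the other letters searched, the shares of P450 promoters, of all promoters and of those in the low CpG range without a peak are given in that order. GTAAACA, a FOX motif, had 9.28%, 3.02% and 4.28%, and AAGATGG, of YY1, had 11.3%, 6.69% and 6.67%. TGACGT, of CREB, had 1.03%, 8.62% and 3.8%, and CACGTG, the E-box, had 3.09%, 7.9% and 3.95%. GCATGCG, of NRF1, had 1.03%, 4.29% and 1.24%, and TCACCCC, a core of the sterol regulatory element, had 2.06%, 4.62% and 3.94%. The median GC content was 49.2% for the P450 genes and 56.4% for all protein-coding genes, and its part in these shares was not tested.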
